A study of Mus musculus with 20 samples.

Results

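Hypothalamus of 25-month-old male C57BL/6J mice kept for 5 months on the glycation-lowering Gly-Low diet (old Gly-Low) was compared with that of mice matched for age, sex, strain and length of feeding on a control diet (old control). The libraries were taken by their labels for age and diet. They made up 7 of the 20 libraries of the series, 4 of old control and 3 of old Gly-Low. Beside them stand 4 libraries of young control, from mice aged 3 months after 1 week of control diet, and an acute arm of mice aged 4 months after 1 week of diet, with 5 control and 4 Gly-Low libraries. The labels do not say that each library is a separate animal, so p-values measure the spread between these libraries, which may be technical. The study's stated question for the old mice is how genes that differ with age stand under prolonged Gly-Low feeding.

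As background, Gly-Low is a mixture of alpha-lipoic acid, nicotinamide, thiamine, pyridoxamine and piperine, put together to lower glycation, the attachment of reactive sugars and of the glycolysis by-product methylglyoxal to proteins. In the arcuate nucleus of the hypothalamus, AgRP neurons make the peptides AgRP and NPY, carry receptors for the stomach hormone ghrelin and for leptin, and promote feeding. POMC neurons make the melanocortin peptide that limits feeding through the receptor MC4R, and AgRP blocks that receptor.

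What was measured is the number of poly-A RNA reads per gene, given here as CPM, the count divided by a library size scaled by the trimmed mean of M-values (TMM). The tissue's own peptide genes were present in every old library. The lowest level in any old library was 8.01 CPM for Agrp, 49.3 CPM for Pomc, 27.6 CPM for Hcrt and 163 CPM for Pmch. These are bulk libraries, in which fewer cells of a type and less RNA per cell cannot be told apart.

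Total counts ran from 17955746 to 27399753 in the 7 libraries. Old control 3 stood apart, with 15.8% of its counts in mitochondrial genes against 5.54% to 8.14% in the other old controls and 4.94%, 6.12% and 7.36% in old Gly-Low. Its length slope, the slope of a library's deviation in log2 CPM on log2 transcript length, was −0.198, against 0.044 to 0.162 in the other old controls and 0.079 to 0.293 in old Gly-Low. Young controls 1, 2 and 3 had 12.9%, 17.2% and 13.7% of counts in mitochondrial genes and length slopes of −0.114, −0.271 and −0.112. Young control 4 had 5.73% and 0.222. Old Gly-Low 1 had a summed level of 10 pituitary genes of 1273 CPM and old control 2 of 791 CPM, against 50.4 to 301 CPM in the other old libraries. For 6 library measures, the exact two-sided permutation p of the difference between the diets ran from 0.229 to 0.457 (0.457 for all 6 after Benjamini-Hochberg adjustment), with 0.0571 the smallest p that 4 against 3 libraries can give.

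No gene passed. Of 18281 genes tested, 0 were higher and 0 lower in old Gly-Low (0% called in each direction) by edgeR's quasi-likelihood test at an adjusted p of 0.05, and the smallest adjusted p was 0.953. At an unadjusted p under 0.05 there were 433 genes (2.37%), 236 higher (1.29%) and 197 lower (1.08%), against 914 that evenly spread p-values would give. All 3 old Gly-Low libraries lay above all 4 old controls for 688 genes (3.76%) and below them for 459 (2.51%). The log2 fold change was above 0 for 9739 genes (53.3%), with a median of 0.03. DESeq2 called 2 genes, Phldb2 and the antisense RNA gene Gm48678. With the replicate number of the titles as a block, 0 genes passed and 3215 (17.6%) had an unadjusted p under 0.05. What follows is therefore a description of levels. Log2 fold changes are given ± SE, and for every gene the adjusted p by edgeR was at least 0.953.

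Among genes higher in old Gly-Low, the protein-coding ones ranked 1 to 10 by p were Phldb2, Thbd, Slc13a4, Bmp4, Tnfrsf8, Bgn, Tnfrsf11b, Slc6a12, Pcolce and Tfcp2l1. Phldb2 (ENSMUSG00000033149, chromosome 16, 45746243 to 45953598 of GRCm38) encodes a protein that ties microtubules to the cell cortex. It had 4.08, 4.34, 2.30 and 4.61 CPM in the old controls and 10.7, 9.38 and 11.0 CPM in old Gly-Low. The lowest Gly-Low library was thus above the highest control, and the log2 fold change was 1.43 ± 0.27 (SE, adjusted p = 0.953). By DESeq2 it was 1.42 ± 0.29 with an adjusted p of 0.0183. Under 18 settings of the fit the log2 fold change ran from 1.22 to 1.55.

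Thbd (ENSMUSG00000074743, chromosome 2, 148404466 to 148408188) encodes thrombomodulin, the receptor by which vessel and meningeal cells turn thrombin to anticoagulant use. Its levels were 9.15, 7.84, 6.52 and 12.6 CPM in old control and 29.5, 24.4 and 21.0 CPM in old Gly-Low (1.46 ± 0.30). Slc13a4 (ENSMUSG00000029843, chromosome 6, 35267957 to 35308131), a sulfate transporter of the meninges, had 4.76, 4.06, 3.88 and 6.89 CPM against 18.2, 14.0 and 17.6 CPM (1.76 ± 0.41). Neither gene had any overlap between the groups. The bone morphogenetic protein gene Bmp4 had means of 1.54 ± 0.41 CPM (SD, n = 4) and 4.69 ± 0.29 CPM (SD, n = 3). The matrix proteoglycan biglycan, Bgn, had 7.28 ± 1.55 and 19.4 ± 2.66 CPM, and Pcolce, which helps to process procollagen, 3.06 ± 0.89 and 8.003 ± 1.88 CPM.

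Slc6a12, a betaine and GABA transporter, had 1.14 ± 0.56 CPM in old control and 4.67 ± 1.18 CPM in old Gly-Low, the highest fold among the 10 (log2 fold change 2.04 ± 0.52). Tnfrsf8, which encodes the receptor CD30, had 15.7 ± 3.13 and 28.7 ± 3.28 CPM. Tnfrsf11b, which encodes osteoprotegerin, a decoy receptor of the same family, had 3.27 ± 0.57 and 6.66 ± 1.03 CPM. The transcription factor Tfcp2l1 had 2.97 ± 0.92 and 6.60 ± 0.50 CPM. For all 10 genes the groups did not overlap and the direction was kept under the 18 settings. They had been picked by this contrast, so that these values describe the choice and support nothing further.

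In the other direction the 10 were Slc38a5, Pllp, Crybb1, St6galnac2, Cldn14, Cideb, Rpl17, B3gnt6, Cd59b and Tmem71. Slc38a5 (ENSMUSG00000031170, chromosome X, 8271133 to 8280179) encodes a glutamine transporter. It had 2.15, 3.83, 4.09 and 2.86 CPM in old control and 1.12, 1.10 and 0.997 CPM in old Gly-Low (−1.59 ± 0.35). Pllp, which encodes the myelin membrane protein plasmolipin, had 15.4, 14.0, 20.2 and 17.1 CPM against 10.1, 8.73 and 8.53 CPM (−0.87 ± 0.22). Both sets of Gly-Low libraries lay below every old control.

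Crybb1, a crystallin gene also read in microglia, had 4.08 ± 0.29 CPM in old control and 1.94 ± 0.56 CPM in old Gly-Low. Rpl17, a protein of the large ribosomal subunit, had 154 ± 35.4 and 68.4 ± 20.1 CPM. Its reads could be shared with near-identical pseudogenes, and 3 other genes lie over it. Most of the rest were near the lower limit of the table. The claudin gene Cldn14 had 1.14 ± 0.40 and 0.261 ± 0.062 CPM, and Tmem71 had 1.29 ± 0.83 and 0.278 ± 0.165 CPM with as few as 3 reads in an old library. Cideb, Cd59b, B3gnt6 and St6galnac2 (ENSMUSG00000057286) had log2 fold changes of −1.54, −1.45, −1.18 and −1.39.

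**Figure D1:**
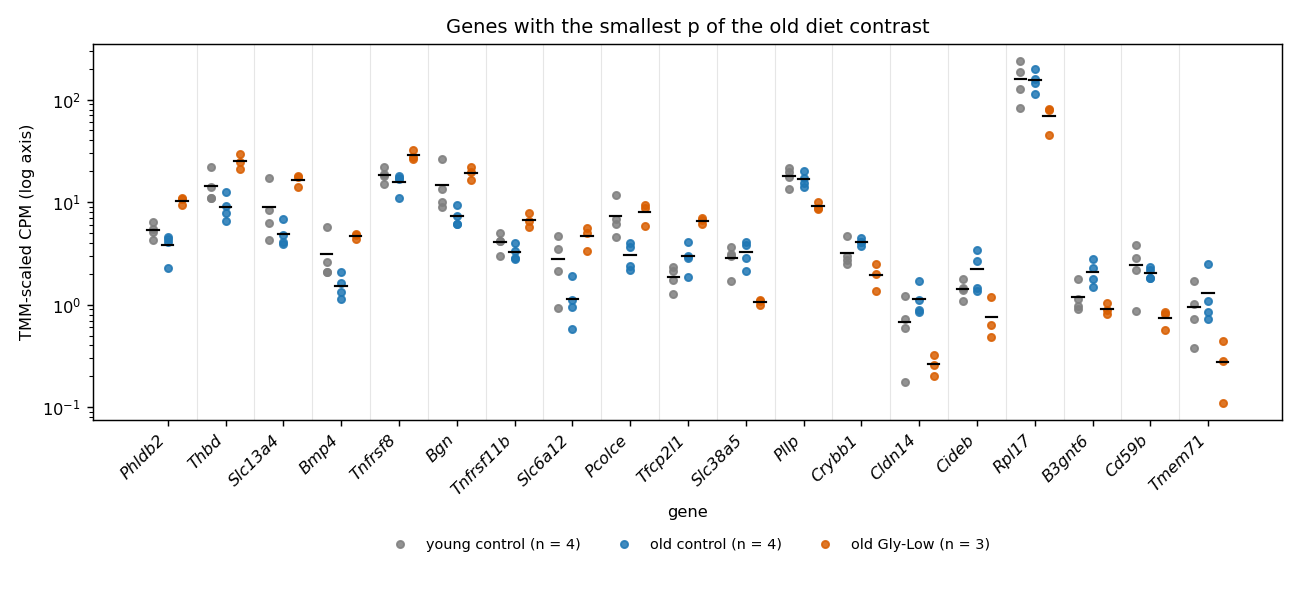
TMM-scaled CPM (log axis) of 19 of the 20 genes ranked first by p, 10 in each direction, in each young control, old control and old Gly-Low library; horizontal bars are group means and St6galnac2 is left out because 2 genes carry its symbol. The old Gly-Low points lie above all old control points for the 10 genes on the left and below them for the 9 on the right, as the choice of the genes by this contrast leads to.

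The smallest p of all genes belonged to Gm48678 (ENSMUSG00000111971, chromosome 12, 4595340 to 4655888, minus strand), which is not protein-coding. It was singled out with its values known, and had 1.17, 1.07, 1.66 and 2.29 CPM in old control and 4.04, 9.13 and 6.87 CPM in old Gly-Low, without overlap (2.10 ± 0.37). By DESeq2 the log2 fold change was 2.08 ± 0.39 with an adjusted p of 0.00396. The young controls had 2.62 to 4.61 CPM. The gene lies inside Itsn2, an endocytosis adaptor gene on the plus strand, and as the libraries do not keep strand, reads of the pair cannot be told apart. Itsn2 itself had 63.2 ± 11.2 CPM in old control and 75.9 ± 8.59 CPM in old Gly-Low (0.26 ± 0.21, and 0.155 without old control 3).

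The genes of hunger signalling were the ones named in the title of the study. Of 12 genes of AgRP neurons and ghrelin, 0 passed and 1 had an unadjusted p under 0.05 in the higher direction (1.29% of all genes). A log2 fold change above 0 was found for 11, against 53.3% of all genes. Their median was 0.63, against 0.03 over all genes, and 0.42 to 0.65 when each old library was left out in turn. The groups did not overlap for Ghsr, Corin and Acvr1c, the last 2 being genes enriched in AgRP neurons, and all 3 were higher in old Gly-Low (3.76% of all genes). Without old control 4, Acvr1c went from 0.64 to 0.39.

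Ghsr (ENSMUSG00000051136, chromosome 3, 27371351 to 27378010), the receptor for ghrelin, had 12.3, 10.5, 10.8 and 8.76 CPM in old control and 15.1, 17.5 and 16.9 CPM in old Gly-Low. The lowest Gly-Low library lay above the highest control, and the young controls, at 10.5 to 14.0 CPM, lay below all 3. The log2 fold change was 0.64 ± 0.19 (95% interval 0.22 to 1.06, adjusted p = 0.953 by edgeR). It was 0.45 with an offset for transcript length, and 0.34 to 0.72 over all settings. Ghrl, which encodes ghrelin itself, was barely read: 0.0852 to 0.838 CPM in old control, and 3.16, 0.325 and 0.554 CPM in old Gly-Low, where old Gly-Low 1 carried the difference (1.64 ± 0.93, and 0.02 without it).

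The peptide genes of AgRP neurons were uneven among the libraries. Agrp (ENSMUSG00000005705, chromosome 8, 105566698 to 105637393) had 12.1, 8.01, 17.0 and 22.3 CPM in old control and 15.3, 30.6 and 20.6 CPM in old Gly-Low. The groups overlapped (0.58 ± 0.36, 95% interval −0.22 to 1.37), and the young controls had 35.4, 39.0, 42.4 and 21.3 CPM. The annotation places 7 other genes over Agrp, 5 of them on the other strand, so its counts may hold reads of neighbours. Npy had 28.1, 17.4, 51.3 and 37.9 CPM against 42.2, 80.6 and 41.8 CPM, again with overlap (0.70 ± 0.40). In young control Npy had 90.9, 93.6, 141 and 50.2 CPM. For both genes the lowest young library was young control 4, whose length slope of 0.222 was the highest of that group. The part of library composition in the young levels was not tested. With the length offset Agrp was at 0.80 and Npy at 0.99, and neither passed after adjustment. Old Gly-Low 2 was the highest old library for both peptides. Without that library Agrp was at 0.27 and Npy at 0.32.

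The leptin receptor Lepr had 7.76, 6.88, 12.1 and 4.53 CPM in old control and 9.01, 15.6 and 11.6 CPM in old Gly-Low (0.63 ± 0.34, and 0.40 without old Gly-Low 2). The NPY receptor gene Npy5r was at −0.33 ± 0.32, and at −0.06 without old control 3. Of 22 genes of leptin and insulin signalling, 21 were above 0 with a median of 0.33, but 0 had an unadjusted p under 0.05 and 0 were free of overlap. The median was 0.17 with the length offset and 0.16 without old Gly-Low 1, where 16 were above 0. Irs2, an adaptor of the insulin receptor, shows how 1 library can carry a value. It had 75.6 CPM in old Gly-Low 1 and 22.6 and 23.5 CPM in the other two, against 17.7 to 36.4 CPM in old control, and its log2 fold change of 0.63 became −0.22 without that library.

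On the melanocortin side no gene separated the groups. Of 12 genes, 0 had an unadjusted p under 0.05, the groups overlapped for all, 5 were above 0 and the median was −0.04, with −0.153 to 0.00407 when each old library was left out. Pomc, the precursor of the melanocortin peptides, had 108, 137, 108 and 49.3 CPM in old control and 132, 58.2 and 63.6 CPM in old Gly-Low (−0.25 ± 0.35, 95% interval −1.03 to 0.53). Its value ran from −0.75 without old Gly-Low 1 to −0.04 without old Gly-Low 2. Pomc was highest in old control 2 and old Gly-Low 1, the old libraries with the highest summed pituitary genes (791 and 1273 CPM). The part of pituitary tissue in these Pomc levels was not tested. Cartpt, the precursor of the satiety peptide CART, had 122, 114, 254 and 73.9 CPM against 81.6, 86.2 and 97.0 CPM (−0.67 ± 0.37). It was at −0.23 without old control 3 and at −0.36 with the length offset. The receptor Mc4r had 4.22, 10.04, 6.35 and 4.95 CPM against 3.48, 5.24 and 5.87 CPM (−0.39 ± 0.32, and −0.09 without old control 2).

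The wake-promoting and feeding peptides of the lateral hypothalamus also overlapped. Hcrt, the orexin precursor, had 56.3, 93.9, 243 and 89.6 CPM in old control and 86.1, 63.7 and 27.6 CPM in old Gly-Low (−1.03 ± 0.51), and its size varied from −1.43 to −0.25 over the settings, with −0.44 without old control 3. Pmch, the precursor of melanin-concentrating hormone, had 163, 298, 538 and 163 CPM against 280, 260 and 261 CPM (−0.12 ± 0.41). Its sign turned to 0.36 without old control 3. Of 18 other neuropeptide precursors 3 were above 0, and the median of −0.31 was −0.11 without old control 3. Neurotensin, Nts, had 24.5, 68.4, 60.5 and 25.4 CPM in old control and 17.8, 25.9 and 20.9 CPM in old Gly-Low (−1.05 ± 0.42), with overlap because old controls 1 and 4 were as low as the treated libraries.

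**Figure D2:**
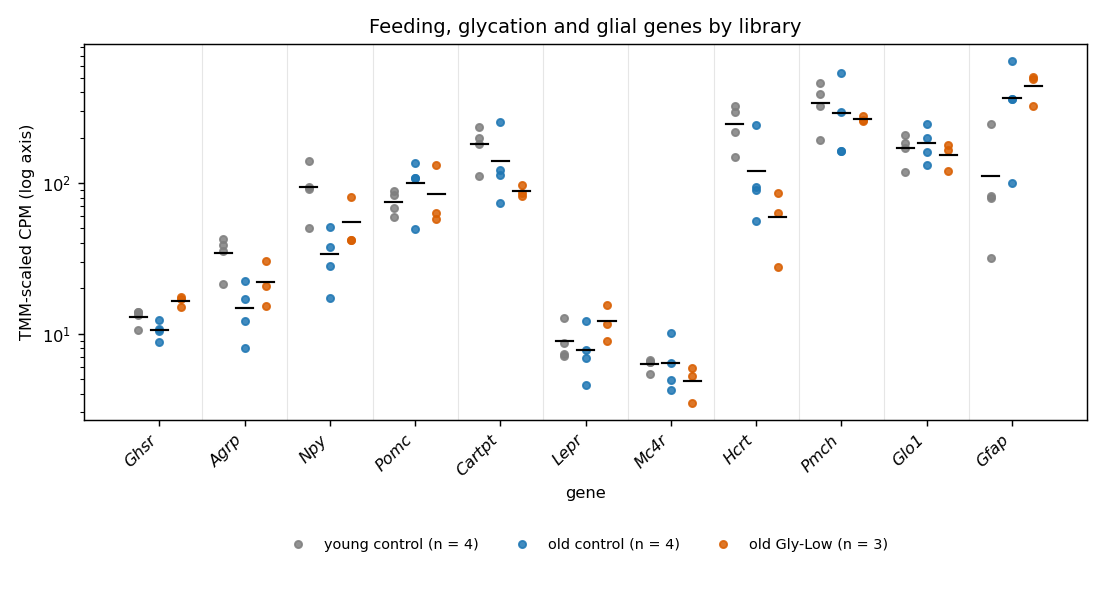
TMM-scaled CPM (log axis) of feeding peptides and receptors, Glo1 and Gfap in each young control (n = 4), old control (n = 4) and old Gly-Low (n = 3) library, with bars at the group means. Ghsr is the one gene shown whose old groups do not overlap, with 8.76 to 12.3 CPM in old control and 15.1 to 17.5 CPM in old Gly-Low.

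Genes of the meninges and fibroblasts, the membrane and matrix-forming cells around the brain, had the highest median of the 46 lists. All 14 were above 0 with a median log2 fold change of 1.42. Of them 7 had an unadjusted p under 0.05 in the higher direction (1.29% of all genes), 8 were free of overlap and higher (3.76% of all genes), and 0 passed after adjustment. The GABA transporter Slc6a13 had 4.80, 5.08, 6.18 and 7.35 CPM in old control and 17.1, 19.8 and 13.9 CPM in old Gly-Low (1.53 ± 0.44). The organic anion transporter Slc22a6 had 2.65, 1.35, 1.24 and 2.93 CPM against 5.80, 6.29 and 6.32 CPM (1.58 ± 0.54). For both transporters every Gly-Low library was above every old control.

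The matrix protein osteoglycin, Ogn, had 8.48, 10.6, 18.5 and 8.84 CPM in old control and 34.0, 42.5 and 32.0 CPM in old Gly-Low (1.64 ± 0.66). The retinoic acid enzyme Aldh1a2 had 8.12, 5.81, 9.54 and 9.79 CPM against 17.3, 11.0 and 20.6 CPM (0.97 ± 0.38). Ptgds, a prostaglandin synthase that the leptomeninges make in bulk, had 549.8, 454.8, 1124 and 567.9 CPM against 1217, 1199 and 1177 CPM (0.83 ± 0.54). The groups did not overlap for these 3 genes either. The fibrillar collagens rested largely on old Gly-Low 1: Col3a1 had 4.52 CPM there and 0.812 and 0.813 CPM in the others, against 0.0426 to 0.647 CPM in old control, and the log2 fold change of 2.26 was 0.90 without that library. Lumican, Lum, which fibroblasts also make, overlapped and stood at 0.31 ± 0.44.

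The level of these genes was not steady among libraries of 1 group. Summed over the 13 genes other than Ptgds, it was 90.5, 86.0, 103 and 82.7 CPM in old control and 197, 172 and 164 CPM in old Gly-Low, but 68.1, 158, 292 and 83.0 CPM in young control. The highest library of the 3 groups was thus a young control. The count of 7 list members with an unadjusted p under 0.05 was 4 without old control 2 or old Gly-Low 1. The list median was 0.90 (without old Gly-Low 1) to 1.52 when each old library was left out and 1.49 with the length offset. How much meninges each dissection carried is not given in the sources used here, and its part in the result was not tested. In the acute arm, which shares no library with the old one, 14 of the 14 were also above 0 and 9 passed as higher (23.8% of all genes passed in that direction).

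**Figure D3:**
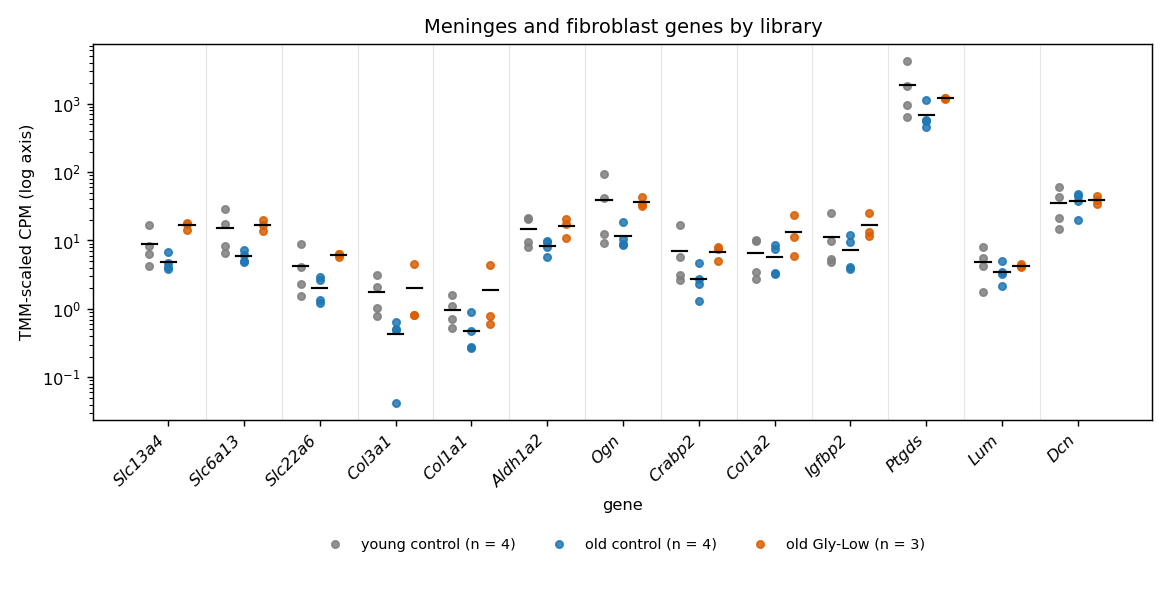
TMM-scaled CPM (log axis) of 13 of the 14 meninges and fibroblast genes in each young control, old control and old Gly-Low library, bars at the group means; Igf2 is left out because some libraries had no read of it. The old Gly-Low points lie above all old control points for Slc13a4, Slc6a13, Slc22a6, Col3a1, Aldh1a2, Ogn, Crabp2 and Ptgds, and the young controls spread over both.

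Macrophages that live in the meninges and around vessels were described by their own list. Of 13 border macrophage and MHC class II genes, 10 were above 0 with a median of 0.42, 1 had an unadjusted p under 0.05 in the higher direction (1.29% of all genes) and 2 were free of overlap and higher (3.76%). The median was 0.191 without old control 2. Their summed level was 46.1 to 66.3 CPM in old control and 73.8 to 82.7 CPM in old Gly-Low. The mannose receptor Mrc1 had 3.68, 5.53, 6.22 and 5.48 CPM in old control and 8.17, 8.24 and 9.01 CPM in old Gly-Low (0.70 ± 0.32). The clotting factor gene F13a1 overlapped, at 3.01 ± 1.59 and 6.13 ± 1.14 CPM (1.02 ± 0.43).

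Myelin genes lay in the other direction. Of 17 oligodendrocyte and myelin genes 1 was above 0, the median was −0.37, 6 had an unadjusted p under 0.05 in the lower direction (1.08% of all genes) and 3 were free of overlap (2.51% of all genes). The count of 6 was 0 without old Gly-Low 1 or old Gly-Low 2 and 1 without old control 2 or old control 3, and reached 7 without old control 1. Mog, a protein of the outer myelin surface, had 70.9, 101, 138 and 86.6 CPM in old control and 50.7, 55.5 and 70.9 CPM in old Gly-Low (−0.75 ± 0.27). Mbp, myelin basic protein, had 3733, 4267, 4212 and 4219 CPM against 2757, 2861 and 3774 CPM (−0.39 ± 0.17), where the highest Gly-Low library and the lowest control met.

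The other members followed with smaller or less regular values. The myelin protein gene Mobp was at −0.46 ± 0.21 and Cnp, an enzyme of myelin, at −0.34 ± 0.15. The regulator of the myelin programme Myrf was at 0.26 ± 0.59, and at −0.60 without old Gly-Low 1. The summed level was 8845 to 10964 CPM in old control, 6465 to 9284 CPM in old Gly-Low and 6116 to 7521 CPM in young control. The median stayed between −0.52 and −0.30 over all settings. Of 10 genes of oligodendrocyte precursors 4 were above 0, with a median of −0.17 that ran from −0.478 without old Gly-Low 1 to 0.0867 without old Gly-Low 2.

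Glycation itself is handled by the glyoxalases, which clear methylglyoxal. Of 16 methylglyoxal and glycation genes 0 had an unadjusted p under 0.05, 4 were above 0 and the median was −0.24, or −0.08 without old control 3. Glo1, glyoxalase 1 (ENSMUSG00000024026, chromosome 17, 30584936 to 30626871), had 160, 198, 247 and 131 CPM in old control and 120, 179 and 165 CPM in old Gly-Low (−0.25 ± 0.25, 95% interval −0.80 to 0.30, and −0.08 without old control 3). Hagh, glyoxalase 2, had 79.2, 90.3, 122 and 65.9 CPM against 55.6, 73.8 and 65.8 CPM (−0.46 ± 0.24, and −0.27 without old control 3). Ager, the receptor for glycated proteins, was low, at 2.33, 1.97, 1.06 and 2.40 CPM against 1.44, 1.01 and 0.850 CPM (−0.82 ± 0.44). All 3 genes overlapped between the groups.

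Among 32 genes of glutathione and of NRF2, the regulator of antioxidant genes, 8 were above 0 with a median of −0.21, and 3 had an unadjusted p under 0.05, all lower (1.08% of all genes). The glutathione transferase Mgst3 had 40.5, 45.3, 92.0 and 36.4 CPM in old control and 26.7, 30.6 and 29.5 CPM in old Gly-Low (−0.89 ± 0.35). The groups did not overlap, and the size depended on old control 3, without which Mgst3 was at −0.49, the list median was −0.07 and 0 of the 32 had an unadjusted p under 0.05. That count was also 0 without old Gly-Low 1 or old Gly-Low 3. The genes that use or make the supplied cofactors had no shift as a list. Of 22 genes of NAD, B vitamin and lipoate metabolism 11 were above 0, 0 had an unadjusted p under 0.05 and the median was −0.002. The lipoate synthase Lias had 47.2, 50.5, 71.5 and 40.02 CPM against 42.7, 43.3 and 38.6 CPM (−0.33 ± 0.20, and −0.15 without old control 3). The groups overlapped.

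The study also set old against young control. In the same fit 6 genes passed between them by edgeR (0.0328% of 18281), all higher in old control, and 301 by DESeq2, of which only these 6 are described. This comparison shares the old controls with the diet comparison, so the levels in the 3 groups are set side by side and no share in common is given. Young controls 1, 2 and 3 were also closer to old control 3 than to the other old libraries in mitochondrial share and length slope. The part of this in the comparison with young control was not tested. The 6 genes were picked for a high level in old control, which by itself favours lower values in old Gly-Low. H2-K1 (ENSMUSG00000061232, chromosome 17, 33996017 to 34000347), a class I molecule that presents peptides to T cells, had 82.2, 94.8, 96.9 and 89.4 CPM in old control and 67.7, 68.7 and 70.8 CPM in old Gly-Low, against 40.6 to 51.5 CPM in the young mice. The 3 groups did not overlap, with old Gly-Low between the others (diet log2 fold change −0.39 ± 0.13, adjusted p = 0.953 by edgeR).

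Its relative H2-Q6 had 3.99, 4.00, 7.20 and 6.21 CPM in old control and 3.76, 3.33 and 2.70 CPM in old Gly-Low, with 0.366 to 1.05 CPM in the young mice (−0.71 ± 0.36). Reads of class I genes can be split between near-identical members. E230025N22Rik had 1.12, 1.92, 1.19 and 1.90 CPM in old control and 0.681, 0.934 and 0.480 CPM in old Gly-Low, with at most 0.122 CPM in the young mice (−1.13 ± 0.55). For these 2 genes, too, old Gly-Low lay below old control and above young control.

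The other 3 overlapped between the old groups. Mpeg1, a perforin-like protein of macrophages and microglia, had 96.2, 125, 118 and 87.9 CPM in old control and 78.9, 98.4 and 109 CPM in old Gly-Low (−0.16 ± 0.19). The immunoglobulin gene Ighm had 23.7 ± 4.86 and 17.4 ± 2.90 CPM (−0.44 ± 0.23). Clec7a, a receptor of reactive microglia, had 6.95 ± 1.14 and 7.07 ± 2.33 CPM (0.03 ± 0.54). Ighm and Clec7a are not typed as protein-coding in the annotation and were named after their values were seen. Gfap, the filament protein of astrocytes, had 362, 363, 99.98 and 646 CPM in old control and 510.2, 326 and 493 CPM in old Gly-Low, a log2 fold change of 0.27 ± 0.64 that stood at −0.04 without old control 3.

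Microglia, the resident immune cells of the brain, had lists near 0. Of 15 homeostatic microglia genes 6 were above 0 (median −0.14, and 0.0439 without old control 3), and the summed level was 483 to 569 CPM in old control and 499.7 to 574 CPM in old Gly-Low. Within the list Cx3cr1, the fractalkine receptor, had 48.9, 46.9, 35.5 and 49.1 CPM against 55.8, 59.9 and 63.9 CPM (0.41 ± 0.18), while the Fc receptor-like gene Fcrls had 30.02, 32.3, 30.3 and 24.9 CPM against 14.2, 24.8 and 22.5 CPM (−0.52 ± 0.22). The groups did not overlap for either, in opposite directions.

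Of 23 genes of disease-associated microglia 7 were above 0 (median −0.10, with −0.228 to −0.0116 when each old library was left out), again with members on both sides. The lipase Lpl had 7.09, 7.05, 3.88 and 8.49 CPM in old control and 10.1, 10.03 and 12.9 CPM in old Gly-Low (0.73 ± 0.29). The lipid receptor Trem2 had 25.7, 30.3, 37.4 and 29.6 CPM against 22.8, 20.9 and 24.7 CPM (−0.43 ± 0.23). Of 20 MHC class I genes 7 were above 0 (median −0.07), and of 18 complement genes 8 (median −0.03, and 0.0973 without old Gly-Low 1). The 3 chains of the complement starter C1q lay together: C1qa was at −0.63 ± 0.32, C1qb at −0.65 ± 0.28 and C1qc at −0.56 ± 0.26, each with all Gly-Low libraries below all controls. They were the only 3 of the 18 complement genes free of overlap and lower (2.51% of all genes). In the other direction 2 complement genes were free of overlap and higher (3.76% of all genes). With the length offset C1qb was at −0.39 and C1qc at −0.35.

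Respiratory and ribosomal genes had the lowest medians of the 46 lists, with sizes that moved when old control 3 was left out. All 77 nuclear-encoded respiratory chain genes had log2 fold changes below 0, with a median of −0.57, yet 1 had an unadjusted p under 0.05 and 8 were free of overlap and lower (2.51% of all genes). The median was −0.21 without old control 3 and −0.27 with the length offset. With the replicate block 67 of the 77 had an unadjusted p under 0.05, against 17.6% of all genes under that block. Ndufs7, a subunit of complex I, had 104, 97.9, 173 and 103 CPM in old control and 78.8, 90.3 and 72.1 CPM in old Gly-Low (−0.57 ± 0.24). Old control 3 was the highest of the old controls there and carried the highest mitochondrial share.

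Of 74 cytosolic ribosomal protein genes 1 was above 0 and the median was −0.47, or −0.12 without old control 3 and −0.17 with the length offset. With a replicate block by column number that median turned to 0.034. Of 13 proteins encoded by the mitochondrial genome 1 was above 0 and the median was −0.85, or −0.12 without old control 3. mt-Co2, a subunit of cytochrome oxidase, had 1832 CPM in old control 3 against 74.8, 66.8 and 50.0 CPM in the other controls and 50.2, 53.9 and 68.6 CPM in old Gly-Low. The other old controls and the Gly-Low libraries overlapped for that gene. These 3 lists changed most in size without old control 3.

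Other lists are described by their counts. Of 21 circadian clock genes 18 were above 0 (median 0.26) and 2 had an unadjusted p under 0.05 in the higher direction (1.29% of all genes), Hlf (0.48 ± 0.17) and Bhlhe40 (0.44 ± 0.18), both transcription factors. Without old Gly-Low 1 the clock median was 0.0715 with 0 members under that p and Bhlhe40 was at 0.27, and with the length offset Hlf was at 0.22. Of 18 genes of tanycytes, the cells that line the floor of the third ventricle, 15 were above 0 (median 0.37), and of 13 regulators of ventromedial and arcuate neurons 12 were (median 0.33). Without old Gly-Low 1 these medians were 0.234 and 0.1, and the latter was 0.68 without old control 4. No member of the last 2 lists had an unadjusted p under 0.05. Among 10 choroid plexus genes 5 were above 0 (median 0.09, and −0.0506 without old Gly-Low 2), and klotho, Kl, a gene tied to ageing, had 9.33, 7.33, 10.8 and 6.70 CPM in old control and 17.7, 13.4 and 12.2 CPM in old Gly-Low, without overlap (0.75 ± 0.25). Ttr, the main secreted product of the plexus, had 0.853 to 3.75 CPM in old control and 2.48 to 5.64 CPM in old Gly-Low.

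All 7 erythrocyte genes were above 0 (median 0.61), with summed levels of 905 to 1801 CPM in old control and 1022, 3278 and 1035 CPM in old Gly-Low. Old Gly-Low 2 carried the difference, and the median was −0.32 without it and 1.15 without old control 4. Of 8 pituitary genes 5 were above 0, and the median moved between −1.14 and 0.74 when 1 library was left out. Lists of immediate early genes, heat shock, the unfolded protein response, cholesterol synthesis, senescence and general neuron genes had medians between −0.11 and 0.09, with 0 members under an unadjusted p of 0.05 except 1 general neuron gene. Those medians moved when 1 library was left out, as with the immediate early genes at −0.347 and the general neuron genes at −0.211 without old Gly-Low 1.

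**Figure D4:**
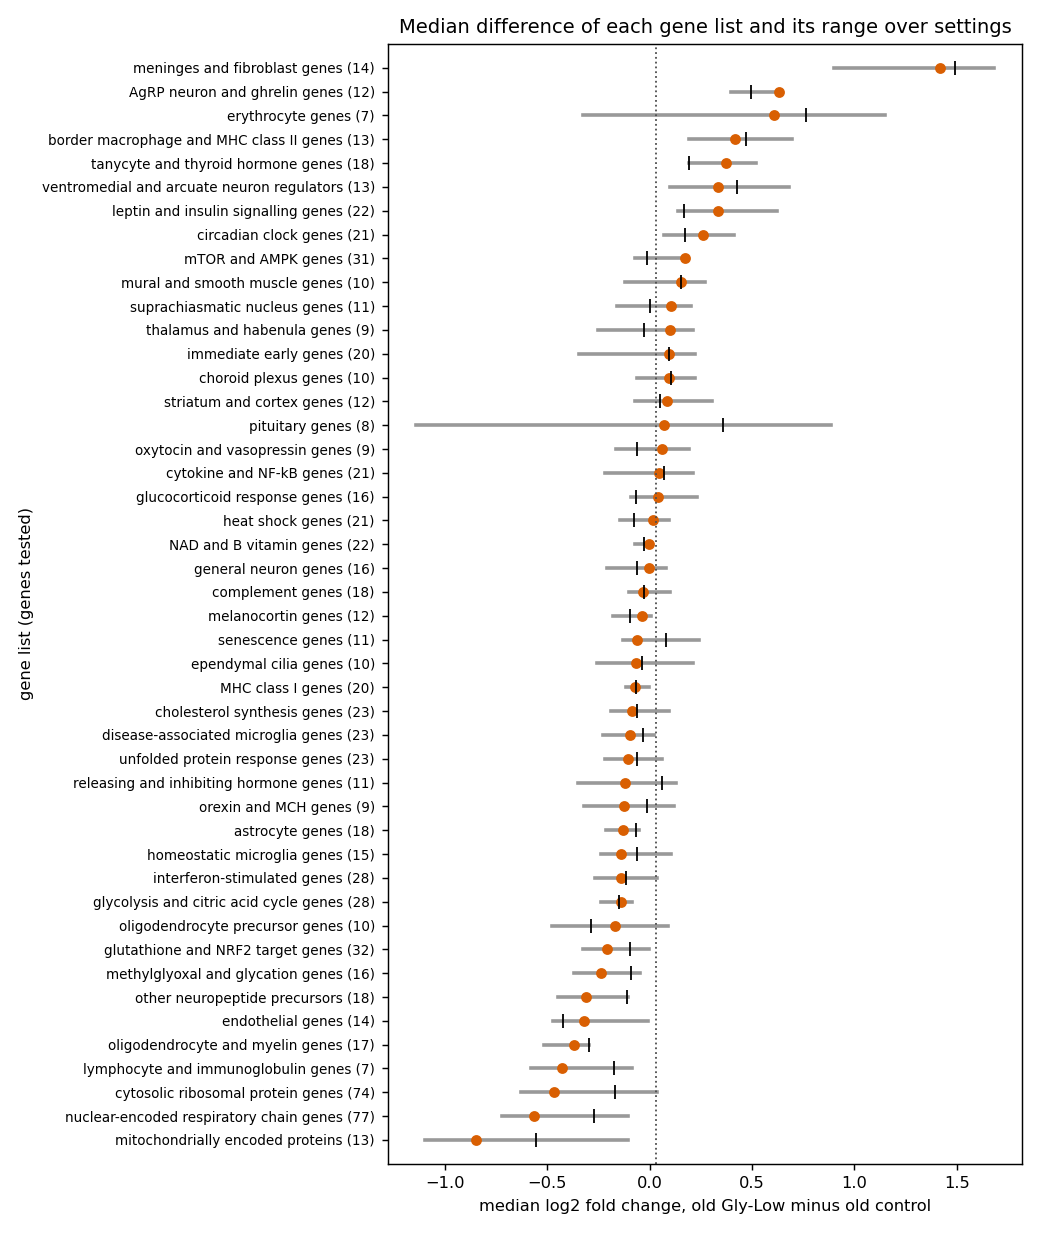
Median log2 fold change (old Gly-Low minus old control) of each of the 46 gene lists, with the number of genes tested in brackets; orange points are the medians, grey bars their range over 18 settings of the fit, black ticks the fit with a transcript-length offset, and the dotted line the median of all genes. Meninges and fibroblast genes lie farthest to the right at 1.42, with a range that stays above 0. The mitochondrial and ribosomal lists lie farthest to the left, with ranges that come close to 0 and for cytosolic ribosomal proteins reach 0.034.

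Whether 5 months of Gly-Low in old mice and 1 week in young mice went with different values was tested as a difference of the 2 diet effects in a fit on all 20 libraries. It passed for 6859 of 19061 genes (36%), with 3193 higher (16.8%) and 3666 lower (19.2%) in the old arm. In that fit 4531 genes (23.8%) were higher and 4382 (23%) lower in acute Gly-Low. The 4 acute Gly-Low libraries had 17.0% to 23.3% of counts in mitochondrial genes and length slopes of −0.432 to −0.226, against 5.35% to 9.11% and 0.136 to 0.228 in the acute controls. With the length offset the difference passed for 4426 genes. The arms also differ in age and in length of feeding, which cannot be told apart.

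Ghsr and Agrp went apart between the arms. Ghsr was at 0.62 ± 0.27 in the old arm and −0.95 ± 0.25 in the acute arm, where it fell (adjusted p = 0.00386 by edgeR). The difference of 1.57 ± 0.37 passed (adjusted p = 0.00263) and was 0.78 with the length offset (adjusted p = 0.151). Agrp was at 0.54 ± 0.35 and 2.45 ± 0.31, a difference of −1.91 ± 0.47 (adjusted p = 0.00394 by edgeR), or −0.47 with the offset (adjusted p = 0.445). Pomc was at −0.26 ± 0.84 and −4.41 ± 0.88, and its difference of 4.15 ± 1.15 passed with and without the offset (adjusted p = 0.00367 and 0.00866 by edgeR). In the acute arm 7 of 8 pituitary genes also fell, with a median of −3.84, where 23% of all genes fell. The part of pituitary tissue in the Pomc difference was not tested. Npy was at 0.68 ± 0.47 and 0.55 ± 0.42, a difference of 0.12 ± 0.63 (adjusted p = 0.894 by edgeR), but with the offset the difference was 1.71 and passed (adjusted p = 0.0264 by edgeR). Pmch and Glo1 differed by −1.85 ± 0.52 and −1.15 ± 0.27 (adjusted p = 0.00966 and 0.00298 by edgeR), and by −0.37 and −0.10 with the offset, where neither passed.

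The genes described above for the old mice also stood in the acute arm, from other libraries. Of the 10 ranked first among those higher in old Gly-Low, 9 were above 0 in the acute arm, 6 rose there and 1, Tnfrsf8, fell, where 23.8% of all genes rose and 23% fell. Thbd was at 1.31 ± 0.24 in the acute arm (adjusted p = 0.000198 by edgeR) and Bmp4 at 2.10 ± 0.32 (adjusted p = 3.44e-05), and the difference between arms passed for neither. Of the 10 ranked first among those lower in old Gly-Low, 4 were below 0 in the acute arm. Slc38a5, at −1.96 ± 0.43, and St6galnac2, at −1.36 ± 0.38, fell there, while Rpl17 and Cd59b rose. Of 17 myelin genes 7 rose and 2 fell in the acute arm, and of 77 respiratory chain genes 68 rose, to be read against the same 23.8% and 23% of all genes. Gm48678 was at 2.24 ± 0.31 in the acute arm (adjusted p = 1.15e-05), with a difference between arms of −0.17 ± 0.47 (adjusted p = 0.801 by edgeR).

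**Figure D5:**
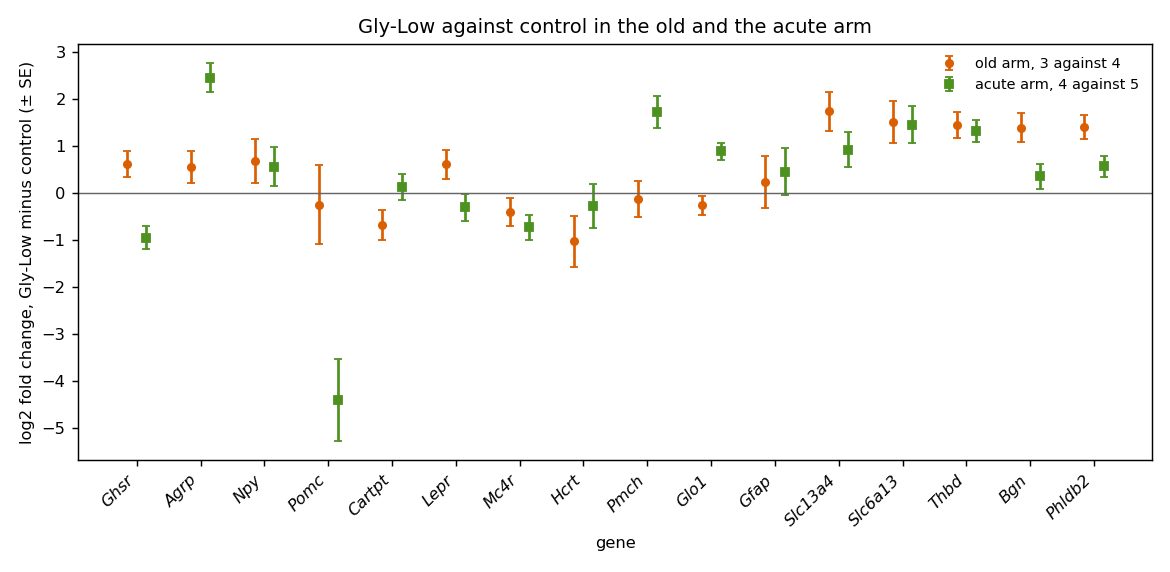
Log2 fold change of Gly-Low against control (± SE) in the old arm (orange, 3 against 4 libraries) and the acute arm (green, 4 against 5), from the fit on all 20 libraries. Ghsr, Agrp, Pomc, Pmch and Glo1 are the genes shown whose difference between arms passed, and Slc6a13 and Thbd lie at nearly the same value in both.

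Among the protein-coding genes ranked 1 to 5 by p for that difference were Arhgap36, Adgrf5, Slc1a4 and Med23. In the old mice their log2 fold changes ran from −0.02 to 0.23. Arhgap36, a gene known to be read in the hypothalamus, had 163, 187, 168 and 127 CPM in old control and 182, 199.6 and 185 CPM in old Gly-Low (0.23 ± 0.15). The differences between arms were 2.56, 2.65, 2.02 and 2.04, each from a lower level in acute Gly-Low. With the length offset they were 2.26, 1.48, 1.42 and 1.08, and all 4 still passed by edgeR.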

How the data were processed

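Poly-A RNA of whole hypothalamus was sequenced from non-directional libraries, per the labels' protocols. The authors deposited a table of raw counts of reads per gene, not normalized. HISAT2 2.0.5, featureCounts 1.5.0-p3, DESeq2 1.20.0 and the build GRCm38 are listed, with no role, in the submitters' processing notes, and the annotation release is not given in the sources used here. Of 54532 genes, 54495 matched the GENCODE annotation of GRCm38, and the other 37 held at most 0.0198% of a library's counts. No library column duplicated another.

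Genes were filtered with filterByExpr by group, scaled with TMM and tested with edgeR 4.0.16 (quasi-likelihood F test, R 4.3.3) on the 11 libraries of young control, old control and old Gly-Low, with Benjamini-Hochberg adjustment over all genes tested at 0.05. The difference between arms was fitted on all 20 libraries. CPM are given as values per library or mean ± SD, log2 fold changes with their SE. Library measures were compared with exact permutation tests. DESeq2 1.42.0, other filters and scalings, other sets of libraries, a replicate block, a transcript-length offset in 40 length bins and leaving out each library were the alternatives, and the code was tested on simulated data.

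The named genes were the protein-coding genes ranked 1 to 10 by p in either direction, 12 genes of feeding, glycation and glia, the genes passing with age, up to 2 members of each of 46 lists or its markers, and the 5 ranked first for the difference between arms, of which 1 is not reported here. Other list members were named after their values were seen. The libraries, lists and genes were chosen with earlier results of these data known.

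Old control and old Gly-Low share replicate numbers in the titles. The correlation of deviations from the group means was 0.447, 0.297 and 0.276 for the pairs numbered 1, 2 and 3, all above 0.1, so the block was kept beside the main fit. The pairing rests on these numbers alone. In the blocked fits of the 11 libraries, each young control also shared a block with the old libraries of its number. That grouping was not checked by correlation. The column names number the old Gly-Low libraries 1, 4 and 5, and no old Gly-Low library correlated best with its own title number.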

Additional observations from a re-analysis of the deposited data

Results flagged for a closer look

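Independent groups not picked by their values would lie beyond Dixon's 95% limit in about 1 in 20 cases. Among the old controls, the library farthest from the rest lay beyond that limit for 12 of 96 groups of values tested. In old control 3 these were Ptgds at 1120 CPM, mt-Co2 at 1830 CPM, mt-Nd3 at 580.0 CPM, Ndufs7 at 173 CPM, Mgst3 at 92.0 CPM, Cx3cr1 at 35.5 CPM, Lipt2, a lipoate transferase, at 13.1 CPM and Cox7a1 at 4.69 CPM. That library also had the highest mitochondrial share of the old libraries, 15.8%. In old control 4 they were Tnfrsf8 at 11.0 CPM, Myrf at 19.0 CPM and the AgRP neuron gene Acvr1c at 8.23 CPM. In old control 1 it was Mbp at 3730 CPM. Many of the genes tested were picked by their values, and all groups share the same 4 libraries. The count of 12 of 96 can therefore not be read against 1 in 20.

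The effect of the diet differed between the old and the acute arm for 18 of 42 named genes, by a test of the difference itself in edgeR (old minus acute, log2). Of all 19061 genes tested, 36% passed. Arhgap36, Adgrf5, Slc1a4 and Med23 were named for their p in this same test, so their passing was fixed by the choice. The diet effect was higher in the old arm for Pomc at 4.15, Adgrf5 at 2.65, Arhgap36 at 2.56, Tnfrsf8 at 2.08, Med23 at 2.04, Slc1a4 at 2.02 and Ghsr at 1.57. It was lower for Rpl17 at −4.35, Cd59b at −2.82, Cldn14 at −2.64, Cideb at −2.57, Agrp at −1.91, Pmch at −1.85, Crybb1 at −1.54, Pllp at −1.28, Glo1 at −1.15, Tnfrsf11b at −0.945 and Ighm at −0.827. With the transcript-length offset the difference no longer passed for Agrp, Ghsr, Pmch, Glo1, Ighm, Crybb1, Cldn14 and Cd59b. The parts of library composition, age and length of feeding in these differences were not tested.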

How the results depend on the processing

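No gene passed between the old diets in edgeR under any setting, and 2 did in DESeq2. Genes at an unadjusted p under 0.05 numbered 433, and 660 in DESeq2, 869 on all 20 libraries, 3215 with the replicate block by title number, 141 with the block by column number and 2860 with that by title number and the length offset. Without 1 library they ran from 226 (without old control 3) to 710 (without old control 4), with 280 without old Gly-Low 1. The block changed no adjusted call. Genes passing with age were 6, and 301 in DESeq2, and those for the difference between arms 6859, and 4426 with the length offset; the cause was not tested. Leaving out a library moved the difference in haemoglobin share between −0.0138 and 0.0989 percentage points.

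Pomc was at 0.00393 with the length offset. Pmch was at 0.504 with the column-number block, 0.281 with the offset, 0.216 with offset and title block, and ran from −0.322 without old control 4 to 0.357 without old control 3. Glo1 was at 0.011 and Gfap at −0.156 with the column-number block, and without 1 library Gfap ran from −0.0447 (old control 3) to 0.68 (old control 4), Irs2 from −0.215 (old Gly-Low 1) to 0.916 (old Gly-Low 2) and Myrf from −0.602 (old Gly-Low 1) to 0.883 (old control 4). Mobp was at 0.00496 and Itsn2 at −0.017 with offset and title block, and Sst at 0.0979 with the column-number block. Clec7a, near 0, was at −0.00126 on all 20 libraries, −0.0991 and −0.185 with the title and column blocks, −0.085 with block and offset, −0.0311 and −0.04 without old control 1 and 3, and ran from −0.252 without old Gly-Low 3 to 0.221 without old Gly-Low 1. Differences between arms turned with the offset for Phldb2 (−0.0751), Thbd (−0.433), Tfcp2l1 (−0.532), Cartpt (0.303), Hcrt (0.966) and H2-K1 (0.36). For genes with few reads, such as Tmem71, small differences were not detectable at this depth.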

Other observations

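Some gene groups outside feeding, meninges and myelin are given here by their values in the old mice, where no gene passed after adjustment by edgeR. The members named were singled out with their values known. Among 11 tested genes of releasing and inhibiting hormones, with which the hypothalamus steers the pituitary, 4 had a log2 fold change above 0 and the median was −0.12, or −0.352 without old control 1 and 0.13 without old Gly-Low 3. Trh, the precursor of thyrotropin-releasing hormone, had 116, 248, 215 and 128 CPM in old control and 87.7, 109 and 79.5 CPM in old Gly-Low. The Gly-Low libraries lay below all old controls (−0.94 ± 0.32), and the value ran from −1.10 to −0.42 over the settings of the fit. Outside that list, oxytocin, Oxt, had 96.4, 205, 144 and 207 CPM against 124, 120 and 93.6 CPM, with overlap (−0.54 ± 0.36). Somatostatin, Sst, a member that also overlapped, was at −0.41 ± 0.34, and at −0.08 without old control 3.

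Of 31 genes of mTOR and AMPK, the kinases that sense nutrients and energy, 20 were above 0 and the median was 0.17. Without old Gly-Low 1 it was −0.0736, and with the transcript-length offset −0.0113 with 14 of the 31 above 0. Deptor, an inhibitor of mTOR, had 47.8, 43.8, 23.4 and 24.6 CPM in old control and 57.2, 65.6 and 63.6 CPM in old Gly-Low (0.83 ± 0.36). Sesn3, a sestrin that restrains mTOR, had 316, 336, 272 and 255 CPM against 351, 429 and 414 CPM (0.43 ± 0.14). For both genes the lowest Gly-Low library was above the highest old control. They were the only 2 of the 31 free of overlap, where 3.76% of all genes were so and higher. Other members went as low as −0.60. Of 28 interferon-stimulated genes 8 were above 0, with a median of −0.14 that ran from −0.27 without old Gly-Low 2 to −0.0543 without old control 4. Ifi27 had 60.7, 68.6, 89.4 and 75.3 CPM in old control and 40.8, 58.5 and 51.2 CPM in old Gly-Low, without overlap (−0.55 ± 0.23), and 27.5 to 47.8 CPM in young control. Of 14 endothelial genes 5 were above 0 with a median of −0.32, which was −0.0104 without old control 4. In that list Kdr, a receptor for vascular endothelial growth factor, had 5.58 to 7.81 CPM against 9.58 to 11.97 CPM (0.69 ± 0.29).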
